A study of Mus with 2 samples.

Results

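The genes described are those of the Fc gamma receptor system, read in sections of 2 CT26 tumors. They were chosen by symbol and comprise Fcgr1, Fcgr3, Fcgr4, Fcgr2b, Fcer1g and Fcgrt, which are 6 of 32285 genes in the count matrices, and all 6 were counted in both sections. Fc gamma receptors sit on macrophages, monocytes, neutrophils and NK cells and bind the constant part of IgG, so that antibody on a target can start phagocytosis, release of cytokines or killing. The activating receptors Fcgr1, Fcgr3 and Fcgr4 signal through the gamma chain encoded by Fcer1g, whose ITAM motif recruits the kinase Syk. Fcgr2b carries an ITIM motif instead and recruits the phosphatase encoded by Inpp5d, which dampens the same signal. Fcgrt encodes the heavy chain of the neonatal Fc receptor, which pairs with beta-2-microglobulin and returns IgG from endosomes to the cell surface. In tumors these receptors are mainly known from macrophages, where the balance of activating and inhibitory members is set by cytokines.

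Both tumors came from balb/c mice of 6 to 8 weeks that had received 200000 CT26 cells, a colon carcinoma line of the same strain, under the skin. The treated mouse was given 10 µg of recombinant mouse IL7 into the peritoneum on days 11 and 13 after transplantation, and the control mouse was given PBS. Both tumors were taken on day 15, embedded, frozen and cut at 10 µm for the Visium assay, which captures polyadenylated RNA on a grid of barcoded spots and counts each captured molecule once as a UMI. A spot can hold several cells of different types. Each group is 1 section of 1 tumor, so the values compare 2 libraries, no test was possible between groups, and an effect of the treatment cannot be told apart from a difference between animals, sections or libraries.

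In the files, Fcgr2b (chromosome 1, 170960558 to 170976071, GRCm38), Fcgr4 (chromosome 1, 171018926 to 171029761), Fcgr3 (chromosome 1, 171051169 to 171065915) and Fcer1g (chromosome 1, 171229572 to 171234349) are neighbours. Fcgr1 lies on chromosome 3 (96282909 to 96293969) and Fcgrt on chromosome 7 (45092993 to 45103822). Reads were counted over genes near their 3′ ends, so exon use cannot be read from these values. Fcgr2b, Fcgr3 and Fcgr4 are paralogs, and reads from near-identical stretches could be assigned to the wrong one or left out, so the values of these 3 genes are uncertain to that extent.

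After filtering, the control section held 2219 spots with a median of 9623 UMIs, and the rIL7 section 1950 spots with a median of 12921.5 UMIs. The sections shared 1702 spot barcodes, which name fixed positions on the slide and not cells. Levels are given as UMIs per 1000000 UMIs of the spots concerned (CPM). Their 95% intervals cover counting error only. The CT26 markers Rpl39l and Baiap2l1 summed to 1293 CPM (control) and 1043 CPM (rIL7), so tumor transcripts were present in both. The defining B cell markers were nearly absent, with 78 UMIs summed over the list in one tumor and 92 in the other.

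Whether the receptor transcripts differed between whole sections was read first. They differed little, and in both directions: the high-affinity receptor Fcgr1 and the adaptor Fcer1g were lower in the rIL7 section, Fcgr4 and the neonatal receptor Fcgrt were higher, and Fcgr2b and Fcgr3 were nearly level. Fcgr1, the high-affinity receptor of the family, had 85.3 CPM (81.6 to 89.2) in the control against 63.7 CPM (60.7 to 66.9) in rIL7, a ratio of rIL7 over control of 0.747 (0.699 to 0.798). Fcgr3, a low-affinity activating receptor that NK cells also carry, had 189 CPM (184 to 195) and 191 CPM (185 to 196), a ratio of 1.01 (0.967 to 1.05). Fcgr4, an activating receptor of monocytes, macrophages and neutrophils, had 55.2 CPM (52.2 to 58.3) and 63.6 CPM (60.5 to 66.7), a ratio of 1.15 (1.07 to 1.24). These 3 activating genes therefore did not move together.

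The adaptor Fcer1g had 661 CPM (650.4 to 672) in the control against 537 CPM (529 to 547) in rIL7, a ratio of 0.813 (0.795 to 0.832). The inhibitory receptor Fcgr2b had 204 CPM (199 to 210.4) and 208 CPM (203 to 214), a ratio of 1.02 (0.978 to 1.06). The interval includes 1, but by location, as given below, Fcgr2b differed in opposite directions. Fcgrt had 79.2 CPM (75.6 to 82.9) and 99.9 CPM (96.1 to 104), a ratio of 1.26 (1.19 to 1.34), while its partner B2m had a ratio of 1.14 (1.13 to 1.15). In bulk sums of this kind fewer cells of a type and less RNA per cell cannot be told apart.

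To describe the spread within a section, each was cut along its median row and median column of the array into 4 quadrants. For Fcer1g the 4 control quadrants lay at 602, 625, 692 and 722 CPM, all above the rIL7 quadrants at 485, 532, 557 and 583 CPM. It was the only member whose quadrants did not overlap between sections. Among the 7613 genes that averaged 20 CPM or more over both sections, 11.8% were lower in rIL7 with quadrants apart and 10.0% were higher, so 1 of 6 and 0 of 6 members is close to that background. Fcgr1 came near to it, with control quadrants at 71.8, 76.1, 88.3 and 110.0 CPM and rIL7 quadrants at 53.8, 56.4, 69.3 and 74.1 CPM, where 1 rIL7 quadrant exceeded 1 control quadrant. Fcgr4 overlapped widely, at 34.7, 47.2, 64.4 and 74.1 CPM in the control and 52.5, 62.5, 69.0 and 73.2 CPM in rIL7. Fcgr2b spread from 146 to 253 CPM over the control quadrants, more than in rIL7, where it ran from 189.7 to 221 CPM. No member reached a ratio of 2 in either direction, against 1.02% of all genes.

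**Figure D1:**
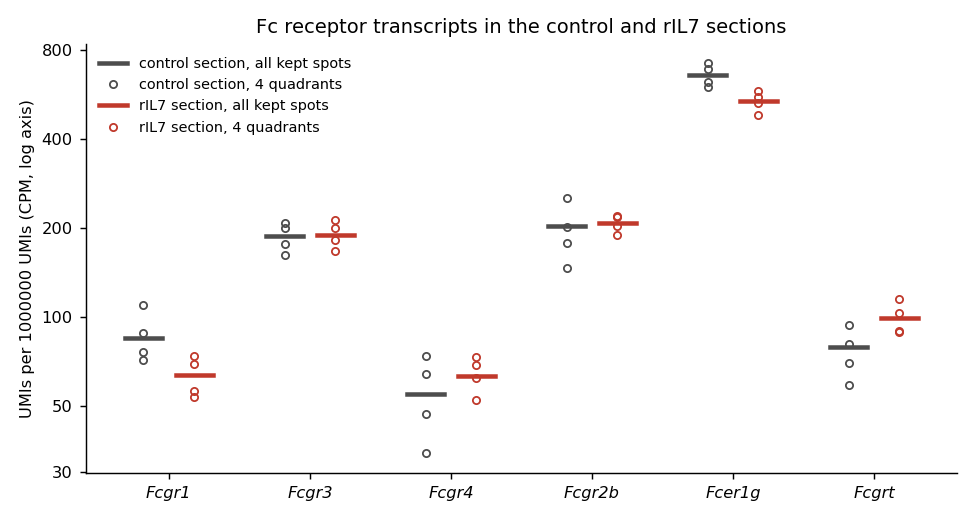
Levels of the 6 genes in the control (grey) and rIL7 (red) sections, in UMIs per 1000000 UMIs on a log axis; thick lines are the level over all kept spots and open circles the 4 quadrants of each section. The quadrants of Fcer1g lie apart, from 602 to 722 CPM in the control and from 485 to 583 CPM in rIL7, and those of the other 5 genes overlap.

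The next comparison asked how the receptors were placed between the outline and the centre of the tissue. Spots up to 2 grid steps from the outline of the main tissue piece were taken as edge (401 in the control, 330 in rIL7) and its other spots as interior (1806 and 1599). In the rIL7 section all 6 genes were higher at the edge than in the interior, and Fcgr4 stood out with a 3.53-fold difference. In the control section the gradients were shallower, and Fcgr3 and Fcgrt had none that the counting error could resolve. The median depth of edge spots was 10901 UMIs in the control and 11165.5 in rIL7. That of interior spots was 9482 and 13162, so the edge was the deeper part in the control and the shallower part in rIL7. The outline is that of the tissue on the slide, and which edge spots lay in tumor was not determined. Keratinocyte markers stood at 121 CPM at the control edge and at 30.1 CPM at the rIL7 edge. Skeletal muscle markers stood at 79.1 CPM in the control interior and at 7.72 CPM in the rIL7 interior. The tissue compared was thus not the same in both sections.

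Among the activating receptors, Fcgr4 had 162 CPM (149 to 175) at the rIL7 edge but 45.7 CPM (42.9 to 48.7) deeper in that section, against 78.3 CPM (70.3 to 86.9) and 49.4 CPM (46.3 to 52.8) in the control. Its edge to interior ratio was 3.53 (3.19 to 3.91) in rIL7 against 1.58 (1.40 to 1.79) in the control, with quadrant ratios of 2.93 to 4.04 and 1.205 to 2.17, which do not overlap. Of the 7613 genes, 22 (0.289%) had a higher edge ratio than Fcgr4 in rIL7 and 32 (0.420%) in the control. The rIL7 edge, with 16.9% of all kept spots, held 39.1% of the Fcgr4 UMIs of the main piece. Fcgr1 had 96.8 CPM at the rIL7 edge and 57.5 CPM inside, which is 1.69-fold (1.50 to 1.89). Its control values were 106 and 80.1 CPM, which is 1.32-fold (1.19 to 1.46). Fcgr3 had a ratio of 1.40 (1.31 to 1.50) from 252 and 179.6 CPM in rIL7, but one of 0.993 (0.920 to 1.07) from 188 and 189 CPM in the control.

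For the inhibitory Fcgr2b, the rIL7 edge stood at 309.6 CPM and the interior at 189 CPM, a ratio of 1.64 (1.54 to 1.75), and the control edge and interior at 219 and 201 CPM, a ratio of 1.09 (1.01 to 1.17). The adaptor Fcer1g had a ratio of 1.49 (1.43 to 1.55) in rIL7, from 743 and 500.3 CPM, against 1.24 (1.19 to 1.29) in the control, from 782 and 631 CPM. Fcgrt had the shallowest gradient of the 6, with a ratio of 1.13 (1.02 to 1.26) in rIL7, from 110.1 and 97.2 CPM, against 0.962 (0.853 to 1.08) in the control, from 76.7 and 79.7 CPM.

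A ratio of at least 2 was reached by 1 of 6 members in rIL7 (Fcgr4), where 1.55% of all genes reached it, and by 0 of 6 in the control, where 0.131% did. All 6 members were higher at the edge in 4 of 4 quadrants of the rIL7 section, against 13.2% of all genes, and 2 of 6 members, Fcgr4 and Fcer1g, in the control, against 8.54%. The edge ratio was higher in rIL7 than in the control with quadrant ratios apart for Fcgr2b, Fcgr3, Fcgr4 and Fcgrt, which are 4 of 6 members against 5.02% of all genes. For Fcgr1 the quadrant ratios spanned 0.926 to 1.70 in the control and 1.42 to 2.26 in rIL7, and for Fcer1g from 1.11 to 1.45 and from 1.28 to 1.65, so these overlapped.

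For 4 of the 6 members the edges differed more than the whole sections did, and for Fcgr1 and Fcer1g they differed less. Comparing rIL7 with the control at the edge, Fcgr4 was 2.06-fold higher (1.81 to 2.36), Fcgrt 1.44-fold (1.24 to 1.66), Fcgr2b 1.41-fold (1.30 to 1.54) and Fcgr3 1.34-fold (1.22 to 1.47). Fcgr1 had a ratio of 0.917 (0.799 to 1.05) and Fcer1g one of 0.9502 (0.904 to 0.998) at the edge. In the interior Fcgrt alone was higher in rIL7, with a ratio of 1.22 (1.14 to 1.30). Fcgr1 had a ratio of 0.717 (0.665 to 0.774) there, Fcer1g 0.793 (0.773 to 0.814), Fcgr2b 0.939 (0.898 to 0.982), Fcgr3 0.949 (0.907 to 0.994) and Fcgr4 0.925 (0.844 to 1.01). The higher level of Fcgr4 over the whole rIL7 section was therefore found at the edge and not in the interior.

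**Figure D2:**
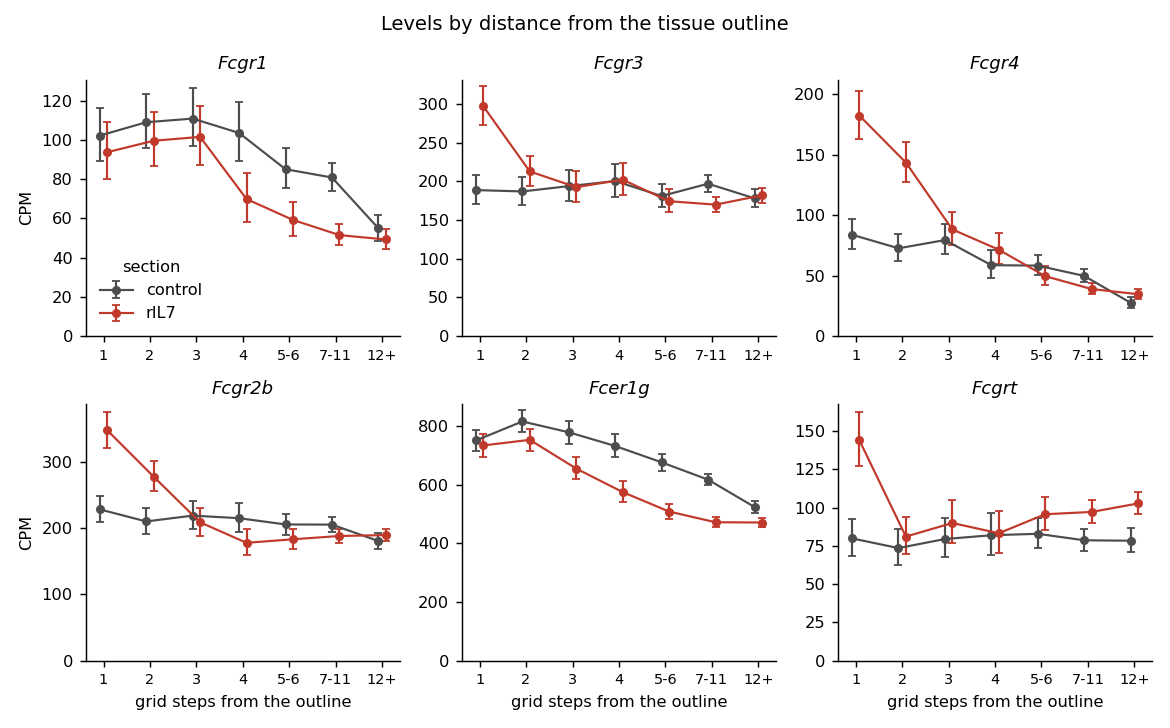
Levels of the 6 genes in CPM (vertical axis, from 0) by the number of grid steps from the tissue outline (horizontal axis), in the control (grey) and rIL7 (red) sections; bars are 95% Poisson intervals. Fcgr4 in rIL7 went from 182 CPM at step 1 to 34.6 CPM at 12 or more steps, while Fcgrt stood at 144 CPM at step 1 and at 81.1 CPM at step 2.

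The profile by ring separated 3 shapes among the members. In the rIL7 section Fcgr4 was at 182 CPM at step 1, 144 at step 2, 88.3 at step 3, 71.5 at step 4, 49.6 at steps 5 to 6, 38.9 at steps 7 to 11 and 34.6 at 12 or more steps. The control started lower and ended lower, at 83.9, 72.6, 79.5, 58.7, 58.3, 49.8 and 27.5 CPM over the same rings. Fcgr1 and Fcer1g also had their lowest levels at or near the centre in both sections. Fcgr1 was at 102 CPM at step 1, 111 at step 3 and 54.9 at 12 or more steps in the control, and at 93.7, 102 and 49.2 CPM in rIL7. At step 4 the sections were further apart, with 103.5 CPM against 69.8 CPM. Between the first and the last ring Fcer1g went from 750.1 to 523 CPM in the control, and in rIL7 it went from 733 to 471 CPM.

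Fcgr2b and Fcgr3 had another shape, with a rim in rIL7 and a flat profile otherwise. Fcgr2b was at 347 CPM at step 1 of rIL7, 277 at step 2 and 209 at step 3, and between 178 and 189 CPM further in. Fcgr3 was at 297 CPM at step 1, 213 at step 2, and between 169.9 and 202 CPM further in. In the control, Fcgr2b lay between 180.4 and 228 CPM and Fcgr3 between 178 and 200.4 CPM over all rings. Fcgrt differed from both shapes: in rIL7 it was at 144 CPM at step 1 and at 81.1 CPM at step 2, and it stood at 103 CPM at 12 or more steps, while in the control it stayed between 73.5 and 82.9 CPM. The Fcgrt level of the rIL7 edge thus came from the outermost row of spots.

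Macrophage transcripts were also higher at the edge. The 9 macrophage markers (Cd68, Adgre1, Csf1r, C1qa, C1qb, C1qc, Mrc1, Mertk and Ms4a7) summed to 3745 CPM along the rIL7 edge against 2181 CPM inside, a ratio of 1.72 (1.69 to 1.75), and 9 of 9 were higher at the edge. In the control the macrophage markers summed to 2539 and 2301 CPM, a ratio of 1.104 (1.08 to 1.13), with 8 of 9 higher. The C1q genes hold most of this sum, C1qa alone being at 1048 CPM at the rIL7 edge. When each member was divided by the macrophage sum of the same spots, 5 of 6 members were no longer higher at the rIL7 edge. The intervals of edge and interior overlapped for Fcgr1 and Fcgr2b and lay apart for the other 4. Fcgr1 had 25.9 UMIs per 1000 macrophage marker UMIs at the edge and 26.3 in the interior, Fcgr2b 82.7 and 86.5, Fcgr3 67.2 and 82.3, Fcer1g 199 and 229, and Fcgrt 29.4 and 44.6. Fcgr4 had 43.1 (39.8 to 46.7) at the edge and 21.0 (19.7 to 22.3) in the interior, still 2.06-fold higher, and by ring it went from 43.9 at step 1 to 16.8 at 12 or more steps. In the control Fcgr4 had 30.8 and 21.5, Fcgr1 41.6 and 34.8, and Fcer1g 308 and 274.

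The same scale also set the sections side by side. At the edge, rIL7 over control per macrophage marker UMI was 1.40 for Fcgr4, 0.973 for Fcgrt, 0.959 for Fcgr2b, 0.909 for Fcgr3, 0.644 for Fcer1g and 0.622 for Fcgr1. In the interior it was 0.976 for Fcgr4, 0.990 for Fcgr2b and 1.001 for Fcgr3, which were nearly level, against 0.757 for Fcgr1, 0.837 for Fcer1g and 1.29 for Fcgrt. Fcgr1 and Fcer1g were thus lower in rIL7 on this scale in both places, while on the CPM scale their edge values were close.

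Marker lists of other cell types that can carry these receptors were read the same way. At the rIL7 edge the monocyte markers summed to 325 CPM against 166 CPM inside, with 6 of 6 measured genes higher, among them Ly6c2 at 67.0 and 18.2 CPM. In the control they summed to 233 and 161 CPM, with 4 of 6 higher. Chil3, another marker on that list, was at 0 UMIs at the rIL7 edge. Neutrophil markers did not share the gradient, at 369 and 403 CPM in rIL7 and 159 and 216 CPM in the control, although their sum over the whole section was 1.94-fold higher in rIL7. In that sum 4 of 7 genes were higher and 3 lower, S100a8, S100a9 and Mmp9 held most of the UMIs, and the quadrants overlapped. NK cell markers stood at 221 and 177 CPM in rIL7 and at 85.9 and 78.7 CPM in the control. Dendritic cell markers stood at 314 and 251 CPM in rIL7 and at 260 and 252 CPM in the control. Mast cells use Fcer1g for the IgE receptor, and their markers stood at 83.8 and 39.1 CPM in rIL7 and at 66.0 and 53.6 CPM in the control. Endothelial markers, whose cells can carry Fcgrt and Fcgr2b, stood at 135 and 60.7 CPM in rIL7, with 8 of 8 higher at the edge, and at 94.2 and 81.4 CPM in the control. The sparse B cell markers had 40 UMIs at the rIL7 edge and 50 inside, or 10.2 and 2.31 CPM. Plasma cell markers stood at 289 and 203 CPM in rIL7 and at 180 and 182 CPM in the control. The part of each cell type in the receptor levels was not tested.

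**Figure D3:**
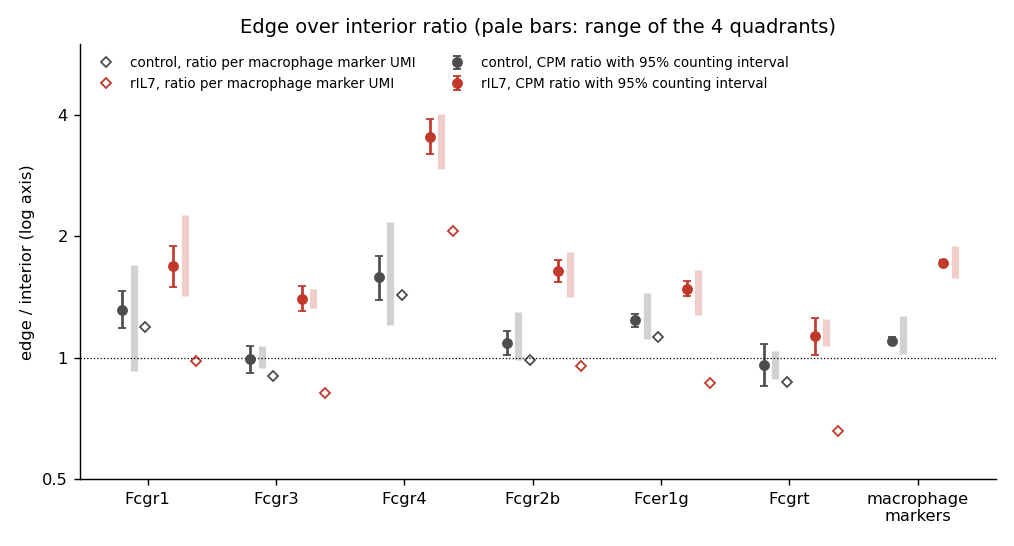
Ratio of the edge over the interior level for the 6 genes and the summed macrophage markers, on a log axis, in the control (grey) and rIL7 (red) sections; filled circles are CPM ratios with 95% counting intervals, pale bars the range over 4 quadrants, open diamonds the ratio per macrophage marker UMI. Fcgr4 in rIL7 is the highest point on either scale, at 3.53 for CPM and 2.06 per macrophage marker UMI, while the other 5 diamonds of rIL7 lie below 1.

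A further question was whether activating and inhibitory receptors kept their proportion. The UMIs of Fcgr1, Fcgr3 and Fcgr4 together, divided by those of Fcgr2b, gave 1.61 (1.55 to 1.67) in the control and 1.53 (1.48 to 1.58) in rIL7. The quadrants ran from 1.42 to 2.14 in the control, which takes in the rIL7 quadrants at 1.45 to 1.63. Scaling between sections does not enter this ratio. At the edge the ratio was 1.70 in the control and 1.65 (1.53 to 1.77) in rIL7, and in the interior 1.59 and 1.50 (1.44 to 1.56). In rIL7 it was highest just inside the edge, at 1.83 (1.61 to 2.08) at step 3 and 1.93 (1.69 to 2.22) at step 4. It was lowest at steps 7 to 11, at 1.38 (1.29 to 1.49). The sum hid opposite movements of its parts.

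Fcgr4 over Fcgr2b was 0.522 (0.473 to 0.575) at the rIL7 edge and 0.242 (0.226 to 0.260) in the rIL7 interior, and 0.358 (0.316 to 0.404) and 0.246 (0.229 to 0.265) in the control. Fcgr1 over Fcgr2b was 0.313 (0.278 to 0.351) and 0.305 (0.286 to 0.325) in rIL7, and 0.482 (0.431 to 0.539) and 0.399 (0.375 to 0.424) in the control. Fcgr3 over Fcgr2b was 0.813 (0.747 to 0.885) and 0.952 (0.911 to 0.995) in rIL7, and 0.858 (0.782 to 0.942) and 0.941 (0.898 to 0.986) in the control. In both sections, then, the edge had more Fcgr4 for each Fcgr2b UMI. Fcgr3 for each Fcgr2b UMI was lower at the rIL7 edge, while its control intervals overlapped, and Fcgr1 relative to Fcgr2b was lower in rIL7 in either place.

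Expressed as shares of the summed UMIs of the 4 receptors, Fcgr4 made up 19.7% (18.35 to 21.1) at the rIL7 edge and 9.70% (9.13 to 10.3) in the rIL7 interior, and 13.25% (11.98 to 14.6) and 9.51% (8.93 to 10.1) in the control. Fcgr1 made up 11.8% (10.7 to 13.0) and 12.2% (11.6 to 12.8) in rIL7, and 17.9% (16.4 to 19.4) and 15.4% (14.7 to 16.2) in the control. The interior share of Fcgr4 was thus about the same in both sections while that of Fcgr1 was not. Shares describe counted UMIs and do not rank the genes against each other.

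The ligand side was read next. Transcripts of the IgG heavy chains were all but missing from the control, where Ighg1 had 1 UMI, Ighg2b 42, Ighg2c 2 and Ighg3 1, and present in rIL7, where the same genes had 674, 1123, 1078 and 290 UMIs. Immunoglobulin genes are a family that can share reads, so single genes are uncertain. Their names are those of the reference genome and may not be the genes that the balb/c strain carries. Which IgG gene was transcribed, Ighg2c included, therefore cannot be read from these counts. In rIL7 the 4 genes summed to 659.8 CPM on the edge side against 24.1 CPM inside, a ratio of 27.4 (24.9 to 30.2). The sum was uneven over that section, at 256 CPM in 1 quadrant and at 40.7, 89.4 and 92.6 CPM in the others. The edge to interior ratio of the quadrants ran from 10.7 to 82.0, far wider than the counting interval. Igkc, the constant part of the kappa light chain, had 37 UMIs in 25 control spots and 3228 UMIs in 473 rIL7 spots. Most of these rIL7 spots were called on a single molecule: 324 held 1 Igkc UMI, 79 held 2 to 4 and 70 held 5 or more. Of the positive rIL7 spots 160 lay at the edge and 299 in the interior. These transcripts mark where antibody genes were transcribed and do not show where IgG protein lay.

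Within rIL7, spots with at least 1 Igkc UMI were set against spots with none. All 6 members were higher in the positive spots, against 42.4% of all genes. Fcgr4 had 90.8 and 54.9 CPM, a ratio of 1.65 (1.49 to 1.83), Fcgr1 79.4 and 58.7 CPM, a ratio of 1.35 (1.22 to 1.50), and Fcgr2b 242 and 197 CPM, a ratio of 1.22 (1.15 to 1.30). Fcer1g had 596 and 519 CPM, Fcgrt 110.3 and 96.5 CPM, and Fcgr3 202 and 187 CPM. None reached a ratio of 2, which 0.184% of all genes did. Positive spots had a median depth of 13162 UMIs and negative spots of 12870. Several marker lists moved with this split. Macrophage markers stood at 2887 CPM in positive and 2278 CPM in negative spots, endothelial markers at 108 and 64.1 CPM, T cell markers at 265 and 157 CPM, monocyte markers at 242 and 176 CPM, and dendritic cell markers at 299.6 and 249 CPM. Their part in the receptor levels was not tested. The control had 25 positive spots, at a median of 3 steps from the outline. In them the sum of Fcgr1, Fcgr2b, Fcgr3 and Fcgr4 was at 743 CPM, and 3 or more steps away at 516 CPM. The same values were 614 and 451 CPM in rIL7. In the interior they were 707 and 504 CPM in the control, from 13 positive spots, and 486 and 397 CPM in rIL7. A higher level in positive spots was thus found in both sections.

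In rIL7, positive spots also lay closer to the outline, at a median of 4 steps, against 7 steps for spots next to a positive one. Inside the edge, all 6 members were higher in positive than in negative spots, against 47.9% of all genes, with 188 and 138 CPM for Fcgr4, 342 and 281 CPM for Fcgr2b, and 816 and 680.3 CPM for Fcer1g. In the same spots the macrophage markers stood at 4451 and 3129 CPM, endothelial markers at 194 and 84.4 CPM, T cell markers at 533 and 299.9 CPM and dendritic cell markers at 401 and 239 CPM. Inside the interior 5 of 6 members were higher, against 47.5% of all genes, and the values were close together. Fcgr4 had 50.3 (43.8 to 57.5) and 44.6 CPM, Fcer1g 504 and 499 CPM, Fcgr2b 196 and 187 CPM, Fcgrt 101 and 96.3 CPM, and Fcgr3, the exception, 174 and 181 CPM. Only Fcgr1, at 65.6 and 55.4 CPM, had a ratio whose interval lay above 1 in the interior, at 1.18 (1.03 to 1.35). No member reached a ratio of 2 at the edge, where 0.447% of genes did, or in the interior, where 0.0263% did. Against negative spots of the same grid step, a comparison added after the values were seen, the ratio was 1.205 for Fcgr1, 1.195 for Fcgr4, 1.11 for Fcgrt, 1.07 for Fcer1g and 1.003 for Fcgr3, with 1.15 for the macrophage markers. For Fcgr2b the positive spots held 1465 UMIs where 1332 would match those negative spots. At the edge alone, matched by step, the ratio was 1.31 for Fcgr1, 1.31 for Fcgr4, 1.22 for Fcgrt and 1.21 for Fcer1g. It was 1.19 for Fcgr2b and 1.09 for Fcgr3, all below the 1.39 of the macrophage markers. In the interior the matched ratios ran from 0.954 for Fcgr3 to 1.14 for Fcgr1, with 1.003 for the macrophage markers.

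By the number of Igkc UMIs at the edge, Fcgr4 was at 138 CPM (123 to 155) with 0, 179.6 CPM (151 to 212) with 1, 192 CPM (151 to 240.1) with 2 to 4 and 197 CPM (164 to 234) with 5 or more UMIs. Fcer1g was at 680.3, 717, 893 and 888 CPM, Fcgr2b at 281, 321, 361 and 357 CPM, and Fcgrt at 95.8, 112, 116 and 150.4 CPM over the same classes. In the interior 5 spots had 5 or more Igkc UMIs, so that class cannot be read there. By distance in rIL7, Fcgr4 at the edge was at 188 CPM in positive spots. It was at 137, 148 and 126 CPM at 1, 2 and 3 or more steps from the nearest one, the last from 8 spots. Fcgr1 at the edge was at 110, 93.3, 56.7 and 34.3 CPM over the same distances, the last from 3 UMIs. In the interior Fcgr1 was at 65.6, 58.2, 50.6 and 33.6 CPM, and Fcgr4 at 50.3, 45.8, 42.8 and 31.5 CPM. The other members did not fall at every step in either part.

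**Figure D4:**
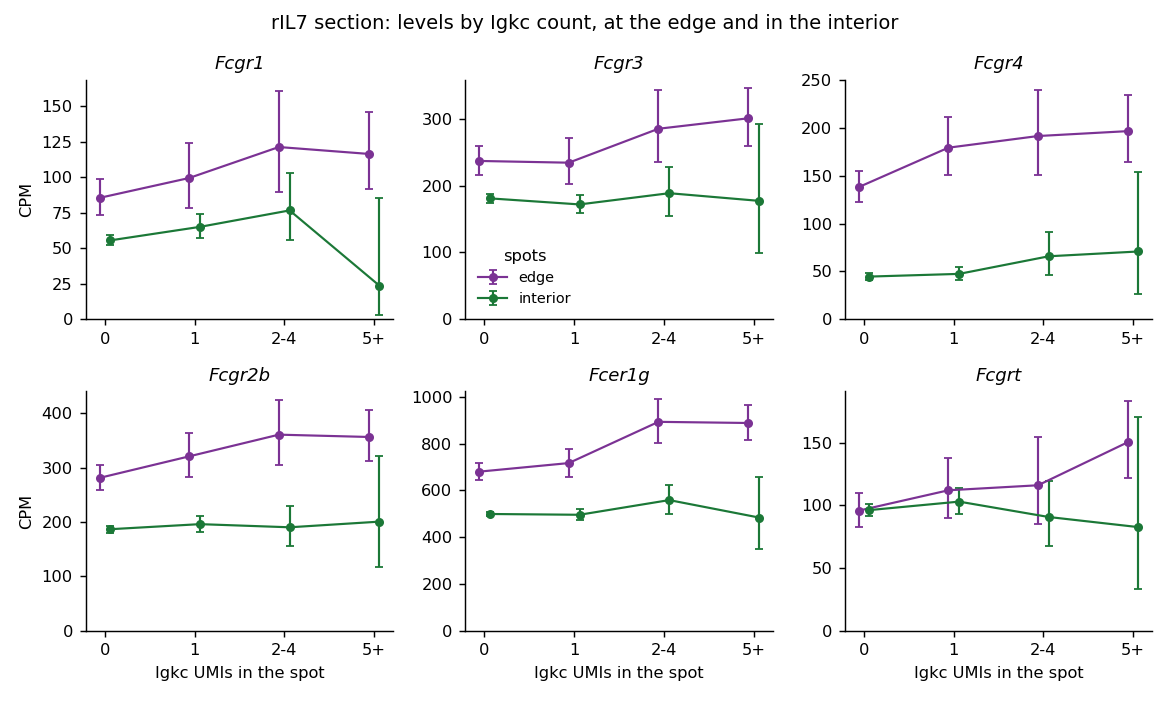
Levels of the 6 genes in CPM (vertical axis, from 0) in the rIL7 section by the number of Igkc UMIs in the spot (horizontal axis), for edge spots (purple) and interior spots (green); bars are 95% Poisson intervals. Edge values lie above interior values for Fcgr4 in every class, for example 138 against 44.6 CPM with 0 Igkc UMIs, and the interior class of 5 or more rests on 5 spots.

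Genes that act behind the receptors were read from fixed lists, given here by counts and medians beside those over all genes. Of 15 genes of activating signalling, 15 were higher at the rIL7 edge and 4 of them at least 2-fold, with a median log2 ratio of 0.80. Of all 13324 genes measured there, 5916 were higher at the edge and 910 at least 2-fold, with a median of -0.05. They included Syk, the kinase bound by the ITAM, at 52.0 CPM at the edge and 21.3 CPM inside, the adaptor Blnk at 22.7 and 8.46 CPM, Fgr at 48.7 and 22.2 CPM, and Pik3cd at 72.4 and 35.6 CPM. B and T cells also express several of these genes. Tyrobp, a second ITAM adaptor of myeloid cells, was at 686 and 417 CPM. In the control 9 of the 15 were higher at the edge, none of them 2-fold, with a median of 0.13, against 5186 of all 13168 genes higher, 135 at least 2-fold and a median of -0.06.

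Of 7 genes of inhibitory signalling, 6 were higher at the rIL7 edge and 0 reached 2-fold, with a median log2 ratio of 0.46, beside the same 5916 of 13324 genes higher and 910 at least 2-fold over all genes. The Fcgr2b effector Inpp5d was at 62.9 and 43.0 CPM, Ptpn6 at 177 and 93.8 CPM, and Inppl1, the exception, at 121 and 144 CPM. The phagocyte NADPH oxidase, which makes superoxide after receptor engagement, had 6 of 6 genes higher at the rIL7 edge and 3 of them at least 2-fold, with a median of 0.81, where all genes had -0.05. Cybb, its catalytic subunit, was at 174 and 63.1 CPM there, but at 96.6 and 87.4 CPM in the control.

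Interferon gamma is known to raise Fcgr1 and Fcgr4 in macrophages. The 10 genes of its response list summed to 2230 CPM along the rIL7 edge against 1106 CPM inside, and to 848 and 622 CPM in the control. Over the whole section they were 1.92-fold higher in rIL7, with 9 of 10 genes higher and a median log2 ratio of 0.95, and Cxcl9 among them was 3.01-fold higher. Of all 14313 genes in that comparison 7098 were higher, and their median was -0.00. In the same comparison Fcgr1 had a ratio of 0.747 and Fcgr4 one of 1.15. At the edge alone the list was 2.63-fold higher in rIL7, with a ratio of 2.06 for Fcgr4 and of 0.917 for Fcgr1. A link between this response and the receptor levels was not tested.

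Partner receptors of Fcer1g gave 236 CPM in rIL7 and 220.4 CPM in the control. Among them Clec4d was 2.10-fold higher in rIL7, the NK cell receptor Ncr1 2.53-fold higher, and Pira2 had a ratio of 0.596. Fc receptors outside the 6 genes were sparse. The 13 genes of that list summed to 56.6 CPM for the control and 38.4 CPM for rIL7, and 6 of them reached 20 UMIs over both sections. Of these 6, the one that differed at least 2-fold was Fcrls, an Fc receptor-like gene, with a ratio of 0.461. Trim21, the cytosolic Fc receptor, had a ratio of 1.06.

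The members were compared over tiles of 8 array rows by 16 array columns, 34 in the control and 32 in rIL7, each holding at least 30 spots. Tiles of a section are neighbours in 1 library and share its depth, so the coefficients are descriptions. By its highest over its lowest tile Fcgr4 varied most in rIL7, from 21.0 to 158 CPM with a median of 61.3, and Fcer1g least, from 401 to 773 CPM. In the control Fcgr1 ran from 17.4 to 156 CPM. Of the 15 pairs of members, those among Fcgr1, Fcgr4 and Fcer1g had Spearman's rho from 0.81 to 0.87 in the control and from 0.82 to 0.84 in rIL7. Fcgr2b and Fcgr3 had 0.73 and 0.75. Between these groups the values were lower in the control, for example 0.27 for Fcgr1 and Fcgr3, than in rIL7, where that pair had 0.63. In rIL7 the groups were not apart, since Fcgr3 had 0.80 with Fcer1g and 0.73 with Fcgr4, against 0.75 with Fcgr2b. Fcgrt had -0.03 and 0.31 with Fcgr1, 0.26 and 0.13 with Fcgr4, and 0.10 and 0.29 with Fcer1g, but 0.58 and 0.32 with Fcgr2b and 0.58 and 0.30 with Fcgr3.

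**Figure D5:**
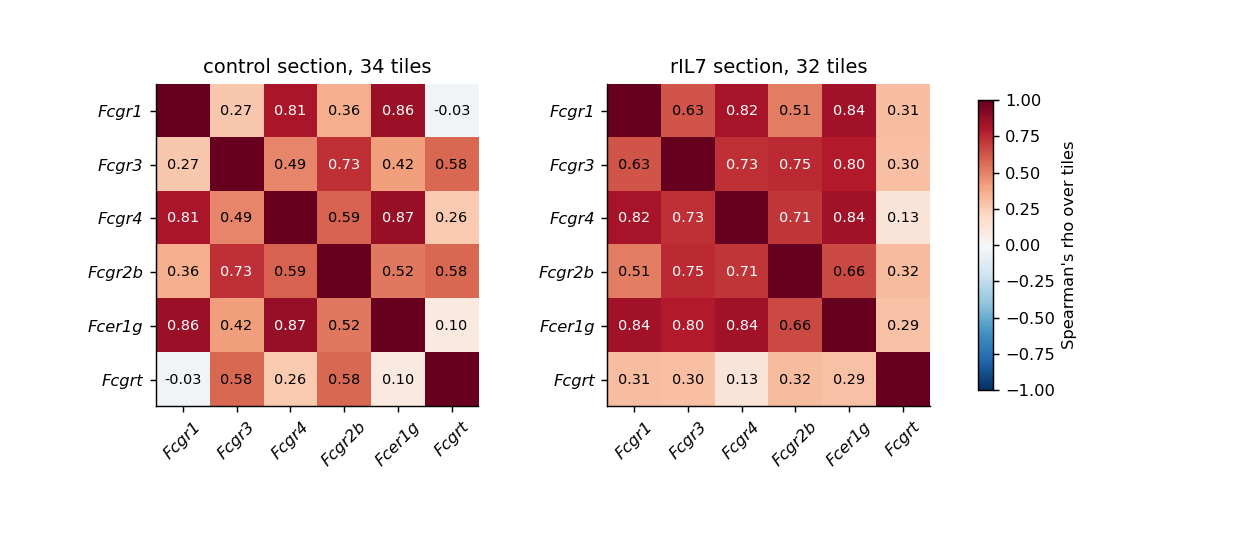
Spearman's rho between the CPM of each pair of the 6 genes over tiles of spots, in the control (left, 34 tiles) and rIL7 (right, 32 tiles) sections, with colour from blue (-1) to red (1). Fcgr1, Fcgr4 and Fcer1g form a block of values from 0.81 to 0.87 in both sections, and Fcgrt has its highest value, 0.58, with Fcgr2b and Fcgr3 in the control.

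The genes most like each member over tiles, by the mean of rho over both sections, were the protease Ctsh (0.90), AW112010 (0.85) and Cd52 (0.84) for Fcgr4, and Ms4a4c (0.87), Ifi27l2a (0.86) and Grn (0.84) for Fcgr1. For Fcer1g they were the lysosomal protease Ctss (0.86), Ms4a4c (0.86) and the macrophage gene Mpeg1 (0.86). Fcgr2b had Psap (0.82), Apoe (0.79) and B2m (0.78), and Fcgr3 had Apoe (0.80), Psap (0.78) and the complement gene C1qb (0.77). Fcgrt had Itm2b (0.63), Lyz2 (0.62) and Selenop (0.61). The median over the genes tested lay between -0.06 and -0.01 for the 6 members. With the summed lists, Fcgr4 had 0.80 in the control and 0.83 in rIL7 for monocyte markers, 0.65 and 0.75 for macrophage markers, and -0.49 and -0.71 for CT26 tumor markers. Fcgr2b had 0.88 and 0.65 for macrophage markers and 0.45 and 0.63 for monocyte markers. With the IgG heavy chain sum Fcgr4 had 0.18 and 0.46, and Fcgrt, the receptor that carries IgG, had -0.04 and -0.14.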

How the data were processed

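Per the labels, the libraries followed the Spatial 3' v1 protocol, and the authors counted genes with Space Ranger 1.1.0 on mm10. The deposited matrices give, for every spot, the raw UMI count of each gene, with other deposited items (barcodes, gene names, array positions) used as given. Spots over tissue were kept with under 10% mitochondrial UMIs and over 200 genes, as in the study's methods, which removed 2 control spots and 1 rIL7 spot and left 22951678 and 25729233 UMIs. UMIs were summed over spots and divided by their total (CPM). Intervals are exact Poisson for a sum and exact binomial (Clopper-Pearson) for a ratio or share, at 95%. Steps were counted over the hexagonal grid from the outline of the largest piece, which leaves out 12 control and 21 rIL7 spots in the edge and interior values. The background takes genes averaging 20 CPM or more, and lists take genes with at least 20 UMIs in the spots compared, a gene at 0 being set to 3 UMIs. With 1 section per group no test was run. Gene positions are those of RefSeq for GRCm38. The scripts (Python 3.11.15, numpy 2.4.6, scipy 1.17.1, pandas 2.3.3) were tested on simulated data. Scaling by edgeR 4.0.16 (TMM) and DESeq2 1.42.0 (median of ratios) served only as alternatives. The members and the 30 gene lists were chosen with earlier results of these data known. Named were the 6 members, Igkc and the 4 IgG heavy chain genes, the 3 genes most like each member over tiles, and genes of a list where it is reported. Alternatives varied the filter, scaling, spot weights, edge width, Igkc call and tiles.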

Additional observations from a re-analysis of the deposited data

Results flagged for a closer look

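A pair of edge to interior ratios pointed in opposite directions in the 2 sections. Fcgr3 had a ratio of 0.993 in the control and 1.40 in rIL7. Fcgrt had a ratio of 0.962 in the control and 1.13 in rIL7. Each group is 1 section, so neither difference was tested. The control intervals of both genes include 1.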

How the results depend on the processing

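With 1 section per group, no value carries a replicate error, and depth limits only the counting intervals. No paired analysis was possible because each group has 1 section. The log2 scaling factor of rIL7 over control changed by -0.01 with TMM and with median of ratios, which moves every log2 ratio of rIL7 over control up by that amount. Per macrophage marker UMI, chosen after seeing the data, the log2 ratio of edge over interior changed sign in rIL7 for Fcgr1 (-0.0269), Fcgr2b (-0.0648), Fcgr3 (-0.292), Fcer1g (-0.209) and Fcgrt (-0.601), and in the control for Fcgr2b (-0.0183). In the interior alone, the rIL7 over control log2 ratio changed sign for Fcgr4 (-0.11), Fcgr2b (-0.0914) and Fcgr3 (-0.0751). So did the list medians of MHC class II genes (-0.12), adipocyte (-0.0206), macrophage (-0.0918), fibroblast (-0.169), dendritic cell (-0.0217) and B cell (-0.251) markers, activating signalling (-0.0969) and other Fc receptors (0.0894). In the interior the Igkc-positive over negative log2 ratio of Fcgr3 also changed sign (-0.055). For the sum of Fcgr1, Fcgr2b, Fcgr3 and Fcgr4, the log2 ratio of rIL7 over control was -0.02, and 0.0411 with spots weighted the same, -0.14 in the interior, 0.47 at the edge and -0.0691 per macrophage marker UMI. Its edge over interior log2 ratio was 0.18 in the control, with 0.25 for spots weighted the same and 0.0427 per macrophage marker UMI. In rIL7 it was 0.80, with 0.90 for an edge of 1 step, 0.70 for 3 steps and 0.0186 per macrophage marker UMI. Its Igkc-positive over negative log2 ratio was 0.30, with 0.64 for at least 2 UMIs, 0.81 for at least 5, 0.0539 in the interior, 0.42 with spots thinned to equal depth and 0.13 against negative spots of the same step. The activating to inhibitory ratio was 1.70 at the control edge and 1.65 at the rIL7 edge, and without Fcgr3 0.687 in the control and 0.612 in rIL7. The cause of these changes was not tested. The other 25 settings tried for these sums and ratios, and for the median correlation of member pairs over tiles, stayed within the interval or spread of the value. Which genes are most like a member changed with larger tiles.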
